A study of Homo sapiens with 9 samples.

Results

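The genes described here are 29 listed genes of cholesterol and fatty acid synthesis and of its control by the sterol response element binding proteins (SREBPs), out of 39344 gene IDs with at least 1 count. They were taken from a fixed list of symbols, and all 29 were found by gene ID, had counts in every library and passed the filter on low counts. The list holds ACAT2 at the entry to the mevalonate pathway, 6 genes of the mevalonate steps, 11 genes that turn farnesyl units into squalene and then sterols, 4 genes of regulation and sterol transport, and 7 genes of fatty acid synthesis and desaturation.

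The RNA came from HaCaT, an established line of immortalized human keratinocytes, grown in high glucose medium with low calcium serum. It was sequenced in 9 libraries, 3 from a subpopulation named BD, 3 from one named NBD and 3 from the cell line itself, named control. The subpopulations were defined by fluorescence-activated sorting to study states linked to progenitors. The labels name no treatment and no engineered allele, do not spell out the 2 names and do not tie replicates to separate cultures. The p-values here therefore rest on the spread between libraries, and that spread may be technical. All groups are of 1 cell line.

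Cells make cholesterol from acetyl-CoA through mevalonate, isoprenoid units, squalene and lanosterol. Fatty acids are built from the same precursor by acetyl-CoA carboxylase and fatty acid synthase, then elongated and desaturated. SREBF2 and SREBF1 encode membrane-bound precursors that are held in the endoplasmic reticulum by INSIG proteins when sterols are plentiful. When sterols are low they are cut in the Golgi, and the released factors switch on the genes of synthesis, SREBF2 mainly those of sterols and SREBF1 mainly those of fatty acids. In epidermis, keratinocytes use both kinds of lipid to build the barrier.

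The promoters of 4 members are printed below to show the letters before the start of a sterol regulator, an early step of sterol synthesis, a feedback regulator and a desaturase. Within the stretches printed, only that of SREBF2 holds an exact match to the core TCACNCCAC of a sterol response element. Each of the 4 holds a CCAAT box. HMGCS1 and SCD are among the members with the largest differences below, and SREBF2 and INSIG1 are shown as regulators. The stretches come from windows of 250 bases before a RefSeq start (GRCh38.p14), written 5′ to 3′ on the strand of the gene. Each was cut where the gene's own exons begin in GENCODE 29, which left 141 to 224 bases. The bases nearest the RefSeq start are therefore not shown. Capitals mark the core TCACNCCAC of a sterol response element and the CCAAT box, which reads ATTGG on the other strand.
SREBF2, chr22:41832855-41833078, plus strand: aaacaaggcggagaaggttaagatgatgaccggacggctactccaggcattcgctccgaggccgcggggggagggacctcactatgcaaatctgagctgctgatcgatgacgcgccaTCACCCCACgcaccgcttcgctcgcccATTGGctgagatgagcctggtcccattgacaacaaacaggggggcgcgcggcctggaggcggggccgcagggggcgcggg
HMGCS1, chr5:43313513-43313662, minus strand: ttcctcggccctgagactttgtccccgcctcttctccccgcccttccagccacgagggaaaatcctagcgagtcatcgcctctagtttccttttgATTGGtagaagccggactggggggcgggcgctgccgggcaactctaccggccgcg
INSIG1, chr7:155297628-155297775, plus strand: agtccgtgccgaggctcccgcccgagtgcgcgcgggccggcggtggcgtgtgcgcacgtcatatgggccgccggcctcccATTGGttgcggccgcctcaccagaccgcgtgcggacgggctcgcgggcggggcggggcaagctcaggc
SCD, chr10:100346983-100347123, plus strand: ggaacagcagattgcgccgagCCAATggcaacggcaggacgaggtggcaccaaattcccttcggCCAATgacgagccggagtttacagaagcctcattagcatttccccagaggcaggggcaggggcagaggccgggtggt

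Promoter windows were found for 25 of the 29 members, some with several starts, which gave 34 windows covering 250 bases before the start. Motifs were searched on both strands. CCAAT was in 23 of the 34 windows (67.6%) and in those of 19 of the 25 members, against 32.0% of all 35116 windows. The GC box GGGCGG, bound by Sp1, was in 30 windows (88.2%), against 42.6% of all windows. The core TCACNCCAC was in 1 member window, that of SREBF2, against 0.883% of all windows, and the E-box CACGTG was in 3 (8.82%), against 6.34%. A match is a description of these letters and not a binding site. The search took exact letters in 250 bases at most, so a missing match does not show that an element is absent.

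Libraries held 17128797 to 29512856 counts. Control replicates 1 and 2 held the fewest, 18054999 and 17128797. Control replicate 3 held 25782938, and BD and NBD libraries held 25754757 to 29512856. All 9 keratinocyte markers stood at 1 CPM or more in every library, and their summed level was 2395 to 3414 CPM in BD, 1938 to 2905 CPM in NBD and 2895 to 3617 CPM in control. This sum hides opposite shifts of single markers. Across the 3 controls in order, KRT5 read 1012, 1242 and 367 CPM, and KRT6A read 499, 630 and 189 CPM. KRT17 read 180, 238 and 794 CPM, and DSG3 read 212, 192 and 249 CPM. The first 2 controls exceeded every BD and NBD library for KRT5 and KRT6A, and fell below all of them for KRT17 and DSG3. No other marker did either in both. Of 7 markers of sebocytes and adipocytes, cells rich in lipid synthesis, 5 had no count in any library, and all 7 summed to at most 0.551 CPM. Mitochondrial rRNA took 17.3% to 22.3% of counts in BD, 26.8% to 28.9% in NBD, and 12.3%, 11.9% and 20.7% in control replicates 1, 2 and 3. Levels below are normalised CPM, counts scaled to the TMM-adjusted library total (CPM), and a fold change is a log2 ratio ± its standard error. In bulk RNA, fewer cells of a type and less RNA per cell cannot be told apart.

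The control libraries were not alike for these genes. In control replicate 1, 5 members lay above the range of the 6 sorted libraries and 9 below it, against 24.4% and 28.5% of all 16921 genes tested. In control replicate 2, 8 lay above and 8 below, against 25.0% and 28.4%. In control replicate 3, 27 of the 29 members lay within that range, SREBF2 and TM7SF2 lay above it and none below, against 5.87% and 6.81% of all genes. These shares of members are near those of all genes. The labels describe the 3 control libraries in the same way. Whether control replicate 3, or control replicates 1 and 2, were handled differently is not known from them. Without control replicate 3, only the libraries of lowest depth remain as control. A value against control therefore depends on which control libraries it uses, and results are given with and without control replicate 3.

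**Figure D1:**
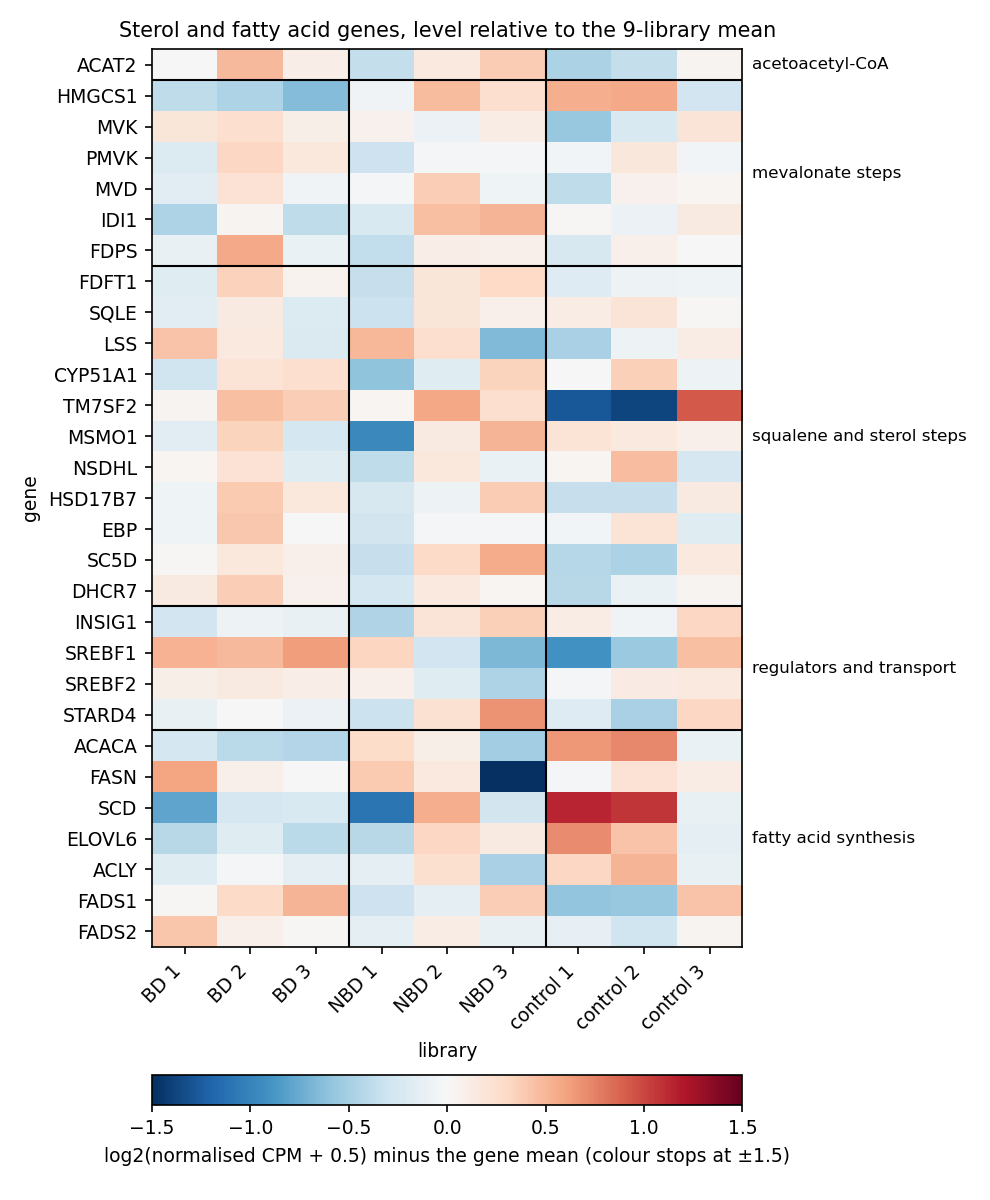
Level of each of the 29 genes (rows, grouped by step) in each of the 9 libraries (columns), as log2(normalised CPM + 0.5) minus the mean over the libraries of that gene. Control replicates 1 and 2 stand out in SCD, ACACA, ELOVL6 and TM7SF2, and control replicate 3 has colours like those of the sorted libraries.

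Per kilobase of exon, the mean level over the 9 libraries was highest for SCD at 105 CPM per kb, followed by FDPS at 55.5, ACLY at 48.2, FDFT1 at 31.4 and FASN at 28.4 CPM per kb. The lowest were FADS2 at 0.495 and TM7SF2 at 1.38 CPM per kb. SCD, the desaturase that makes oleate, so stood first of the 29 and FADS2, the delta-6 desaturase of polyunsaturated fatty acids, last. The ratio of the highest to the lowest library was largest for TM7SF2 at 6.45, SCD at 4.71 and FASN at 4.32, and smallest for SQLE, squalene epoxidase, at 1.43.

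At the mevalonate steps BD and NBD lay furthest apart in 2 genes. HMGCS1, which condenses acetyl-CoA with acetoacetyl-CoA (chromosome 5, 43289395 to 43313512), stood at 53.7, 50.9 and 44.4 CPM in BD, 67.5, 97.9 and 83.9 CPM in NBD, and 102, 104 and 57.5 CPM in control replicates 1, 2 and 3. Each BD library was below each NBD and each control library. BD against NBD was -0.74 ± 0.24 (unadjusted p = 0.0114, adjusted p = 0.801 by edgeR's quasi-likelihood test). IDI1, the isomerase that makes the reactive isoprene unit, stood at 38.9, 55.5 and 41.3 CPM in BD and at 45.9, 73.6 and 76.6 CPM in NBD, with 54.7, 50.6 and 59.4 CPM in control. BD and NBD overlapped in IDI1, and their difference was -0.53 ± 0.22 (unadjusted p = 0.0384, adjusted p = 0.814).

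The other mevalonate genes lay closer together. MVK, mevalonate kinase, stood at 22.7, 23.9 and 21.3 CPM in BD, 20.9, 18.7 and 21.6 CPM in NBD, and 13.4, 17.0 and 23.0 CPM in control. The 2 low values are control replicates 1 and 2. FDPS, which makes farnesyl diphosphate, ranged from 158 CPM in NBD replicate 1 to 302 CPM in BD replicate 2. PMVK and MVD, the next kinase and the decarboxylase, ranged over 3.93 to 6.32 CPM and 11.8 to 20.02 CPM. The 6 genes summed to 365 ± 79.7 CPM in BD, 387 ± 66.2 CPM in NBD and 376 ± 27.6 CPM in control (SD, n = 3 each), so that the sums differed by less than their spread. ACAT2, the cytosolic thiolase that supplies acetoacetyl-CoA, stood at 101, 141 and 108 CPM in BD, 78.1, 111 and 130 CPM in NBD, and 71.9, 78.1 and 103 CPM in control.

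The sterol steps summed to 649 ± 90.0 CPM in BD, 626 ± 113 CPM in NBD and 599 ± 35.6 CPM in control (SD, n = 3 each), which also overlapped. TM7SF2, a sterol reductase that acts after lanosterol demethylation (chromosome 11, 65111845 to 65116384), was the exception in its range. It stood at 4.27, 5.85 and 5.51 CPM in BD, 4.26, 6.45 and 5.04 CPM in NBD, and 1.43, 1.29 and 8.32 CPM in control. Its counts were 123, 149 and 160 in BD, 115, 156 and 128 in NBD, and 28, 23 and 221 in control. Both the lowest and the highest libraries for TM7SF2 were thus control libraries. It overlaps VPS51 on the same strand, and the sources used here do not give how shared reads were counted.

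DHCR7, the last reductase to cholesterol, stood at 104, 123 and 99.3 CPM in BD, 78.9, 105 and 96.9 CPM in NBD, and 70.8, 88.4 and 97.9 CPM in control, with each BD library above each control library. SC5D, the sterol desaturase just before it, stood at 35.8, 39.5 and 37.3 CPM in BD, 27.7, 43.3 and 52.4 CPM in NBD, and 26.1, 25.3 and 39.2 CPM in control. Over the 9 libraries FDFT1, squalene synthase, ranged from 127 to 205 CPM and LSS, which closes the ring to lanosterol, from 25.1 to 56.9 CPM. CYP51A1, the lanosterol demethylase, ranged from 9.26 to 18.4 CPM, and MSMO1, the C4 methyl oxidase, from 35.4 to 99.4 CPM. NSDHL and HSD17B7, which finish the removal of C4 methyl groups, ranged from 17.4 to 31.5 CPM and from 18.3 to 30.8 CPM, and EBP, the sterol isomerase, from 40.5 to 65.3 CPM.

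Among the regulators, both SREBP genes were higher in every BD library than in any NBD library, as were 7.19% of all genes tested. SREBF1 (chromosome 17, 17810399 to 17837002) stood at 113, 111 and 122 CPM in BD, 98.8, 64.6 and 49.1 CPM in NBD, and 41.6, 53.4 and 108 CPM in control. SREBF2 stood at 119, 123 and 120 CPM in BD, 118, 98.8 and 81.1 CPM in NBD, and 110, 122 and 124 CPM in control. For SREBF2 the margin was narrow, with 118.9 CPM in BD replicate 1 and 117.8 CPM in NBD replicate 1. The BD libraries lay close together in both genes, and the NBD libraries were spread. For SREBF1, BD against NBD was 0.70 ± 0.35, with an adjusted p of 0.814. INSIG1, which retains the SREBPs, stood at 34.2, 39.4 and 38.6 CPM in BD, 30.3, 47.8 and 53.7 CPM in NBD, and 45.1, 40.1 and 52.0 CPM in control, with each BD library below each control library. STARD4, a carrier of cholesterol between membranes, ranged from 34.3 to 77.3 CPM with its highest value in NBD replicate 3.

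The 7 fatty acid genes summed to 1209, 1274 and 1266 CPM in BD, 1154, 1673 and 1030 CPM in NBD, and 2100, 2142 and 1359 CPM in control. Control replicates 1 and 2 lay above all other libraries, and control replicate 3 lay among them. SCD (chromosome 10, 100347124 to 100364834) held much of this, with 286, 418 and 423 CPM in BD, 232, 724 and 410 CPM in NBD, and 1092, 1043 and 459 CPM in control. Without SCD the sums were 874 ± 42.9 CPM in BD, 830 ± 183 CPM in NBD and 1002 ± 99.7 CPM in control (SD, n = 3 each).

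ACACA, the carboxylase that makes malonyl-CoA (chromosome 17, 37084988 to 37406818), stood at 154, 139 and 136 CPM in BD, 223, 197 and 129 CPM in NBD, and 291, 304 and 172 CPM in control. ELOVL6, which lengthens palmitate, stood at 31.1, 36.7 and 31.4 CPM in BD, 31.1, 51.9 and 46.1 CPM in NBD, and 68.7, 56.2 and 38.0 CPM in control. In both genes, as in SCD, each BD library was below each control library. ACLY, which makes cytosolic acetyl-CoA from citrate, stood at 216, 243 and 225 CPM in BD, 224, 292 and 176 CPM in NBD, and 307, 351 and 228 CPM in control.

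FADS1, the delta-5 desaturase, ran the other way: 138, 168 and 196 CPM in BD, 110, 125 and 177 CPM in NBD, and 90.7, 92.1 and 185 CPM in control. FADS2 ranged from 4.32 to 7.40 CPM. FADS1 and FADS2 overlap on opposite strands, and the sources used here do not give whether strand was used in counting. FASN, fatty acid synthase, stood at 376, 264 and 250 CPM in BD, 328, 278 and 87.1 CPM in NBD, and 245, 291 and 271 CPM in control, so that NBD replicate 3 alone was low.

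**Figure D2:**
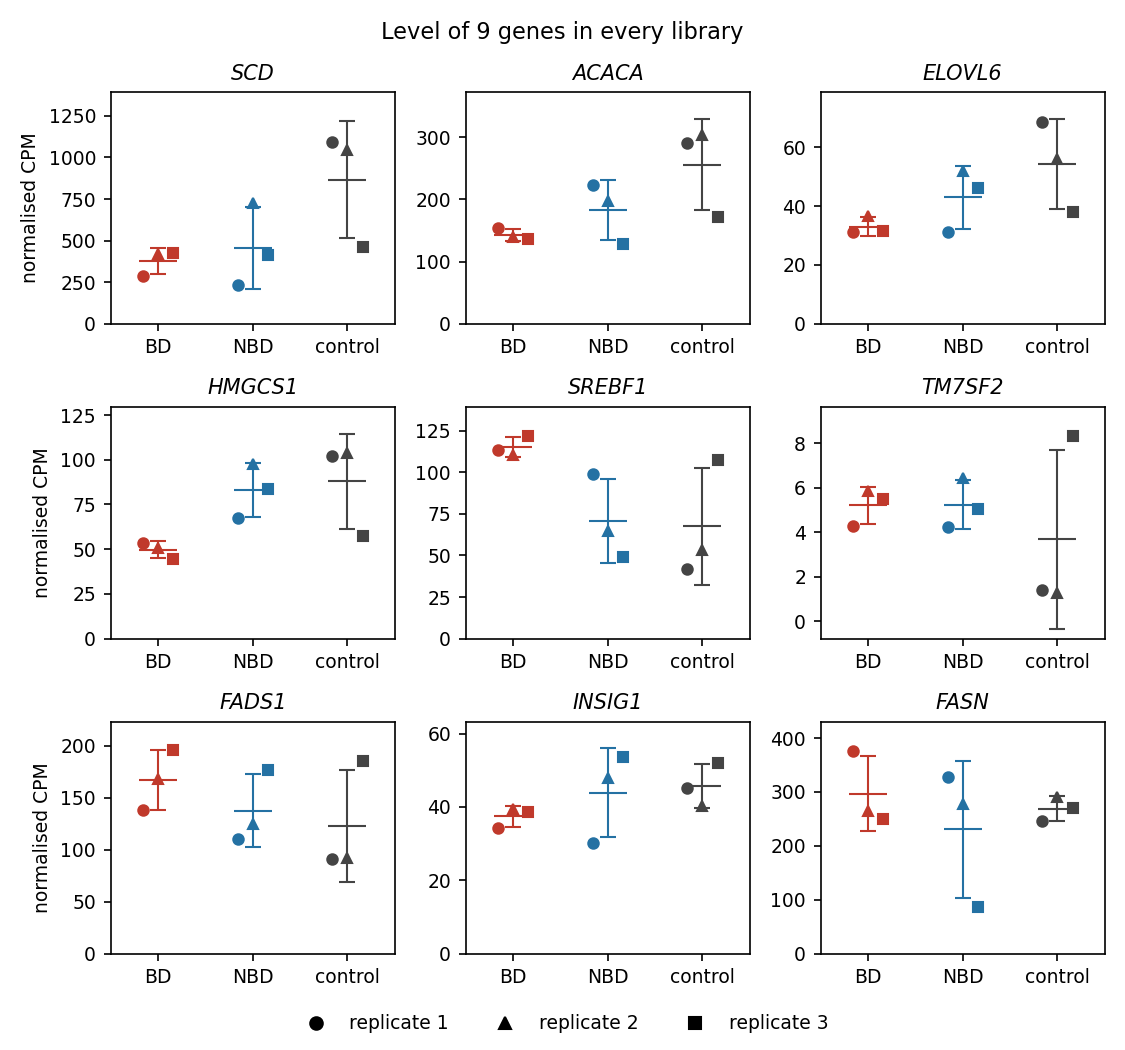
Normalised CPM of 9 genes in the BD, NBD and control libraries. Symbols give the replicate, horizontal lines the mean of each group and bars the SD (n = 3). For SCD, control replicates 1 and 2 stand at 1092 and 1043 CPM and control replicate 3 at 459 CPM, and for FASN, NBD replicate 3 stands at 87.1 CPM.

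For BD against NBD, none of the 29 members was called at an adjusted p under 0.05, where 0.0177% of all genes tested were called (3 genes). At an unadjusted p under 0.05, HMGCS1 and IDI1 were lower in BD and no member was higher, 2 of 29 against 5.86% of all genes. The median over the members was 0.04, with 16 above 0 and 13 below, against a median of -0.02 over all genes. Members whose groups did not overlap were SREBF1 and SREBF2 on the higher side and HMGCS1 on the lower, against 7.19% and 7.36% of all genes. These counts are near the background.

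Beside HMGCS1, IDI1 and SREBF1, the 6 members of largest difference held 3 more. ELOVL6 was at -0.38 ± 0.25 (adjusted p = 0.840), ACACA at -0.35 ± 0.26 (adjusted p = 0.856) and FASN at 0.36 ± 0.39 (adjusted p = 0.905), by the same test. The value for FASN turned to -0.021 without NBD replicate 3. The remaining 23 members lay between -0.32 for STARD4 and 0.28 for FADS1. Over all alternatives tried, the smallest adjusted p of HMGCS1 was 0.272 and the largest 1.00, with a fold change from -0.87 to -0.60. The standard errors leave room for differences of moderate size, and a p that misses the threshold does not show equal levels.

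**Figure D3:**
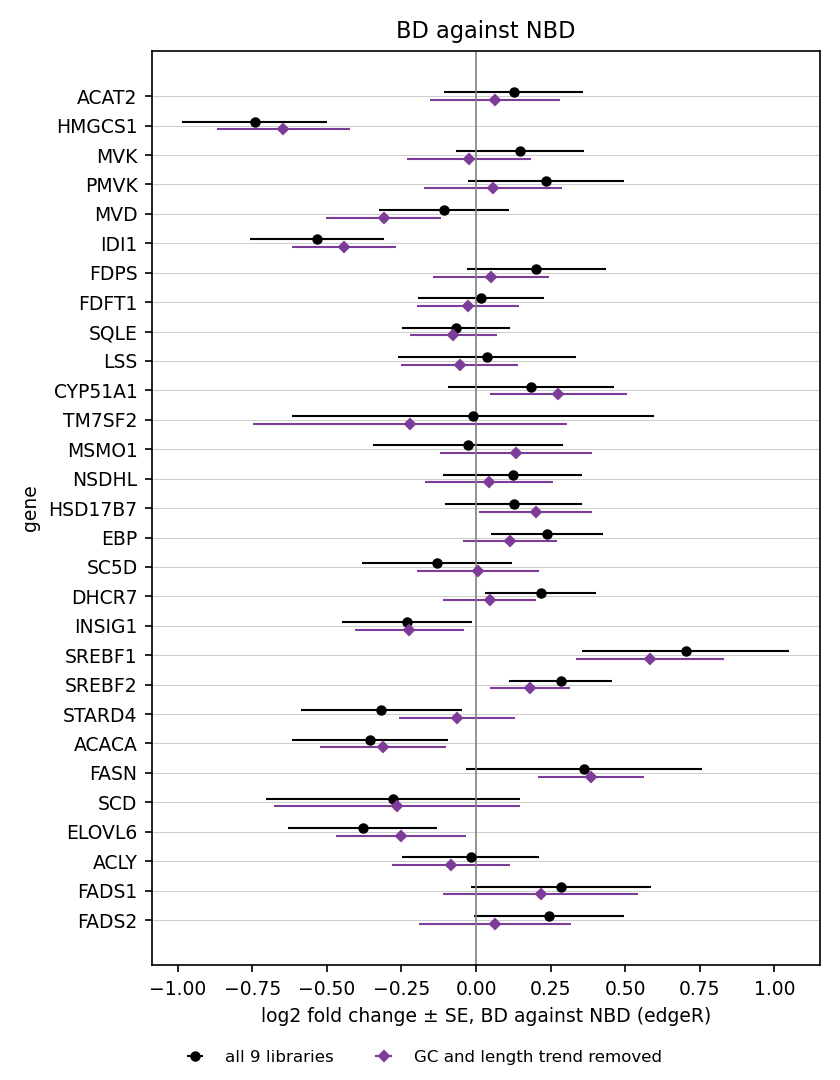
Log2 fold change ± SE of BD against NBD for each of the 29 genes, from all 9 libraries (black circles) and with a trend on GC content and transcript length removed (purple diamonds). HMGCS1 lies lowest at -0.74 and SREBF1 highest at 0.70, and neither was called.

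For BD against control with all 9 libraries, 0 members were called by edgeR's quasi-likelihood test, where 0% of all genes were called, and DESeq2 called 0 members, against 0.987% of all genes. At an unadjusted p under 0.05, SREBF1 was higher and HMGCS1, ACACA, SCD and ELOVL6 were lower in BD, 5 of 29 against 13.8% of all genes. The differences were -1.20 ± 0.43 for SCD, -0.84 ± 0.26 for ACACA, -0.82 ± 0.24 for HMGCS1, -0.71 ± 0.25 for ELOVL6 and 0.77 ± 0.35 for SREBF1, with adjusted p of 0.333 to 0.362. TM7SF2 was at 0.49 ± 0.61, FADS1 at 0.45 ± 0.30 and MVK at 0.34 ± 0.21. Groups did not overlap for DHCR7 and SREBF1 on the higher side, 2 of 29 against 8.05% of all genes. On the lower side they did not overlap for ACACA, ELOVL6, HMGCS1, INSIG1 and SCD, 5 of 29 against 7.72%. Without the filter on low counts, 4 members were called (HMGCS1, SCD, ACACA and SREBF1), against 2.95% of the 39344 genes then tested. That background takes in the genes of low count that the filter removes, whereas all 29 members pass it. The shares are therefore not like for like.

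Without control replicate 3, 8 of the 29 members were called for BD against control, against 24.3% of the 17755 genes then tested. The share of members is near that of all genes. SCD fell by 1.50 ± 0.37 (adjusted p = 0.0155), ACACA fell by 1.05 ± 0.22 (adjusted p = 0.00736), HMGCS1 fell by 1.04 ± 0.19 (adjusted p = 0.00339) and ELOVL6 fell by 0.91 ± 0.22 (adjusted p = 0.0146), 4 members against 10.5% of all genes. TM7SF2 rose by 1.94 ± 0.32 (adjusted p = 0.00227), SREBF1 rose by 1.29 ± 0.27 (adjusted p = 0.00718), FADS1 rose by 0.88 ± 0.24 (adjusted p = 0.0228) and MVK rose by 0.58 ± 0.19 (adjusted p = 0.0477), 4 members against 13.8%. All 3 BD libraries lay on the same side of both control libraries in each of these genes. FASN, ACLY and FADS2, the other fatty acid genes, were not called.

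With control replicate 3 as the only control, 0% of the 18832 genes then tested were called for either subpopulation, so the lack of called members is no result about these genes. TM7SF2 turned to -0.68 ± 0.36. SCD was then at -0.30 ± 0.50, HMGCS1 at -0.22 ± 0.26, ACACA at -0.27 ± 0.30, ELOVL6 at -0.21 ± 0.30 and SREBF1 at 0.09 ± 0.34, all with an adjusted p of 1.00. This fit takes the spread of the lone control from the sorted groups. Over all alternatives, the adjusted p of each of the 8 members reached 1.00 at its largest, and the smallest was 0.000866, for SCD without the filter.

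For NBD against control with all 9 libraries, 0 members were called by edgeR, where 0% of all genes were called, and 0 passed an unadjusted p under 0.05, against 9.13% of all genes. DESeq2 called 0 members as well, against 0.171% of all genes. No member had groups that did not overlap in either direction, against 4.67% of genes on the higher side and 3.75% on the lower. SCD was at -0.93 ± 0.43 (adjusted p = 0.539), TM7SF2 at 0.50 ± 0.61 (adjusted p = 0.744), ACACA at -0.48 ± 0.26 (adjusted p = 0.551) and SC5D at 0.44 ± 0.25 (adjusted p = 0.556). ACLY was at -0.35 ± 0.23 and ACAT2 at 0.34 ± 0.23. Without the filter SCD alone was called, against 1.51% of the 39344 genes then tested, a background that again takes in genes of low count.

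Without control replicate 3, 2 members were called for NBD against control, against 18.2% of all genes. TM7SF2 rose by 1.96 ± 0.33 (adjusted p = 0.00284), 1 member against 11.6% of all genes, and SCD fell by 1.22 ± 0.37 (adjusted p = 0.0450), 1 member against 6.56%. ACACA at -0.69 ± 0.22 (adjusted p = 0.0539) and SC5D at 0.70 ± 0.25 (adjusted p = 0.0745) missed the threshold. With control replicate 3 as the only control, TM7SF2 was at -0.68 ± 0.36 and SCD at -0.03 ± 0.51, both with an adjusted p of 1.00. Over all alternatives the adjusted p ranged from 0.00284 to 1.00 for TM7SF2 and from 0.0350 to 1.00 for SCD. Comparisons of BD and of NBD with control share the control libraries.

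**Figure D4:**
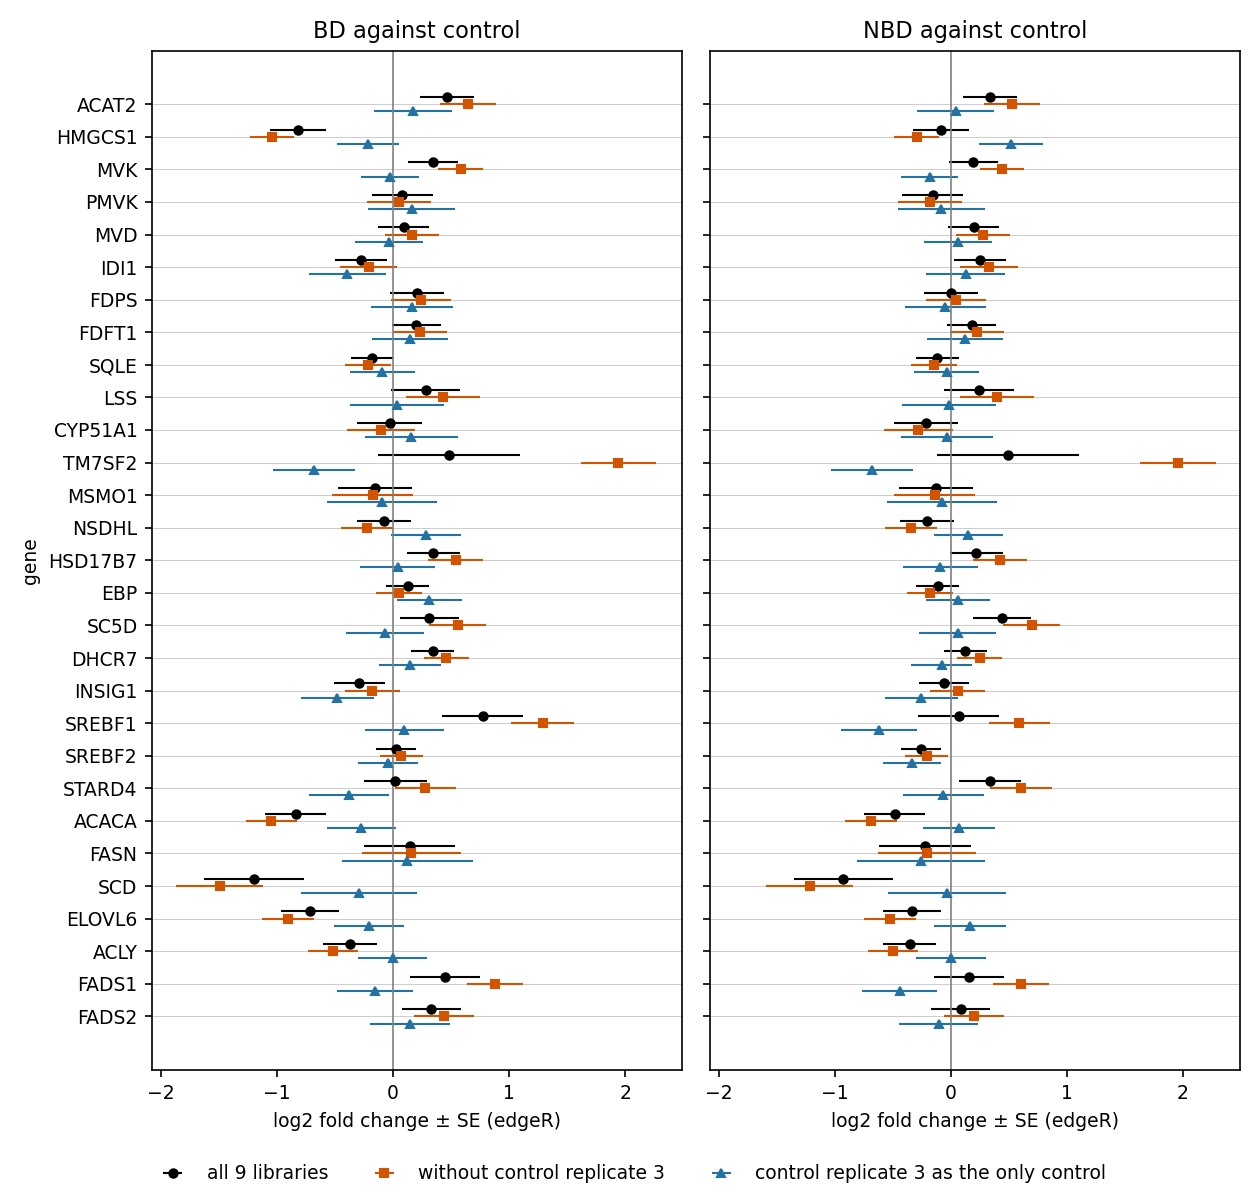
Log2 fold change ± SE of the 29 genes for BD against control (left) and NBD against control (right), from all 9 libraries (black), without control replicate 3 (orange) and with control replicate 3 as the only control (blue). For TM7SF2 in BD the values are 0.49, 1.94 and -0.68.

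By step, with all 9 libraries, the median for BD against control was -0.37 over the 7 fatty acid genes and 0.20 over the 11 sterol genes. It was 0.09 over the 6 mevalonate genes and 0.02 over the 4 regulators. For NBD against control these medians were -0.34, 0.13, 0.10 and 0.00. Over all 29 members the median was 0.09 for BD and 0.01 for NBD, against 0.03 and 0.04 over all genes tested. Without control replicate 3, the fatty acid median was -0.52 for BD and -0.50 for NBD, and the sterol median was 0.23 and 0.22. With control replicate 3 as the only control, the fatty acid median was -0.15 and -0.03, and the sterol median was 0.04 and -0.03. The values that moved with the split of the control libraries were not those of lipid genes alone. CDH5, an endothelial cadherin, stood at 14.6, 11.8 and 18.8 CPM in BD, 15.6, 5.92 and 11.9 CPM in NBD, and 1.07, 0.785 and 16.6 CPM in control, and made up most of the endothelial sum in the sorted libraries. VWF, another endothelial marker, ran the other way, with 0.417, 0.118 and 0.0689 CPM in BD, 0.593, 0.703 and 0.157 CPM in NBD, and 1.53, 1.07 and 0.0753 CPM in control. PECAM1, the remaining endothelial marker of the list, reached at most 0.197 CPM. The 3 endothelial markers summed to 11.9 to 18.9 CPM in BD, 6.66 to 16.3 CPM in NBD and 1.85 to 16.8 CPM in control. The 6 fibroblast markers summed to 4.10 to 5.20 CPM in BD, 2.89 to 4.22 CPM in NBD and 0.715 to 5.24 CPM in control. Melanocyte markers summed to at most 1.85 CPM and leukocyte markers to at most 0.333 CPM. The part of these marker levels, and of the keratinocyte marker shifts given above, in the lipid gene results was not tested. With both mitochondrial rRNA genes taken out of the counts, the median over the members was 0.06 for BD against NBD, 0.09 for BD against control and -0.01 for NBD against control, and no member was called.

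Single libraries set part of the spread within groups. NBD replicate 1 was the lowest of the 9 libraries for 11 members, among them SCD, MSMO1, FDFT1, FDPS and INSIG1, against 18.5% of all genes. BD replicate 2 was the highest for 8 members, among them FDPS, FDFT1, DHCR7 and ACAT2, against 11.4% of all genes. NBD replicate 3 was the highest for 5 members (IDI1, INSIG1, MSMO1, SC5D and STARD4), against 13.7% of all genes, and the lowest for 5 others (ACACA, ACLY, FASN, LSS and SREBF2), against 15.4%.

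Differences of NBD replicate 3 from the mean of the other two NBD libraries, on the log2(CPM + 0.5) scale, followed GC content. Members under 50% GC lay above 0 in 12 of 13 cases with a median of 0.40, while members at 50% GC or more lay above 0 in 8 and below in 8, with a median of -0.03. Across the 29 members the difference correlated with GC content at r = -0.67, and across 12588 protein-coding genes at r = -0.37, where the genes share the same 3 libraries. Medians of protein-coding genes in 5 equal groups of rising GC content were 0.30, 0.21, 0.05, -0.12 and -0.25. FASN, with 65.3% GC, differed by -1.79 and LSS by -1.04. MSMO1, with 38.1% GC, differed by 0.92 and STARD4 by 0.72.

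With the trend on GC content and transcript length removed from each library, these differences became -0.55 for FASN, -0.49 for LSS, 0.64 for MSMO1 and 0.41 for STARD4. SREBF1 went to -0.04, against -0.70 before, and ACACA to -0.31, against -0.70. SREBF2 changed sign, to 0.18 from -0.41. The difference became smaller in 21 of the 29 members and larger in 8. Among those that became larger, MVK went to 0.54, against 0.13 before, FADS2 to 0.43, against -0.10, FADS1 to 0.75, against 0.59, and HMGCS1 to -0.23, against 0.05. In the comparison of BD with NBD, this removal gave -0.65 for HMGCS1, -0.44 for IDI1, 0.58 for SREBF1 and 0.38 for FASN, and called no member. The pattern with GC content was noticed in these libraries, and its part in the differences between groups was not tested further.

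**Figure D5:**
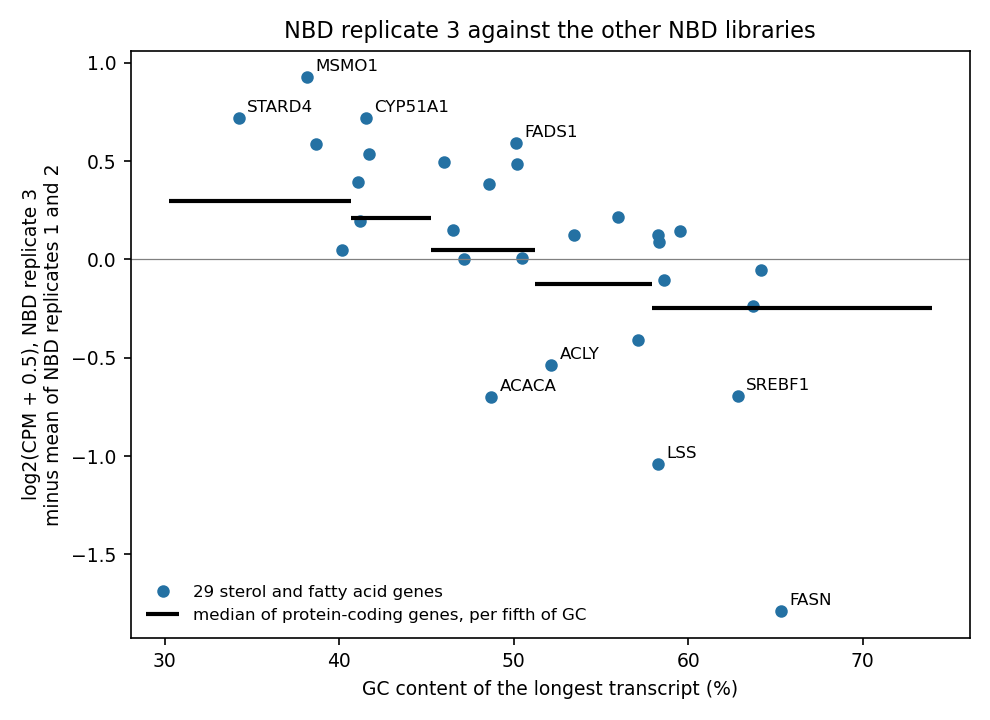
Difference of NBD replicate 3 from the mean of NBD replicates 1 and 2 in log2(CPM + 0.5), against the GC content of the longest transcript, for the 29 genes (points). Black lines are medians of protein-coding genes in 5 equal groups by GC content, which run from 0.30 to -0.25, and FASN lies lowest at -1.79.

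A further list of 44 genes of the same pathways, with receptors, transporters and regulators, had 41 tested. With all 9 libraries, edgeR called 0 of them in each of the 3 comparisons, where at most 0.0177% of all genes were called. At an unadjusted p under 0.05 by the same test there was 1 for BD against NBD, against 5.86% of all genes. There were 6 for BD against control, against 13.8%, and 5 for NBD against control, against 9.13%. DESeq2 called 1, INSIG2, which was lower in BD than in control (adjusted p = 0.0376), against 0.987% of all genes. Over the 41 genes the median difference was 0.11 for BD against NBD, 0.03 for BD against control and -0.05 for NBD against control. Without control replicate 3, 10 of 41 were called for BD against control, 6 higher and 4 lower, and 8 for NBD against control, 3 higher and 5 lower. Both counts lie near the 24.3% and 18.2% of all genes given above.

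The named genes of that list act at the control points of the pathway. INSIG2, the second retention protein of the SREBPs, stood at 11.05, 9.58 and 8.10 CPM in BD, 10.4, 16.01 and 14.9 CPM in NBD, and 35.4, 28.5 and 11.1 CPM in control. Control replicates 1 and 2 lay above every other library. Without control replicate 3, INSIG2 fell by 1.73 ± 0.23 in BD (adjusted p = 0.000800) and fell by 1.19 ± 0.23 in NBD (adjusted p = 0.00638). MBTPS2, the site 2 protease that releases the SREBPs, stood at 28.8, 22.3 and 21.7 CPM in BD, 26.3, 25.6 and 29.9 CPM in NBD, and 53.2, 45.6 and 22.1 CPM in control, and fell by 1.02 ± 0.19 in BD (adjusted p = 0.00396) and by 0.84 ± 0.19 in NBD (adjusted p = 0.0129). MYLIP, the ubiquitin ligase for lipoprotein receptors, fell by 1.25 ± 0.26 in BD (adjusted p = 0.00640) and fell by 1.13 ± 0.26 in NBD (adjusted p = 0.0134).

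On the higher side without control replicate 3, PPARA, a nuclear receptor that drives fatty acid oxidation, rose by 2.38 ± 0.34 in BD (adjusted p = 0.0010) and by 1.90 ± 0.33 in NBD (adjusted p = 0.00375). It stood at 15.8, 16.1 and 25.8 CPM in BD, 13.4, 9.97 and 17.7 CPM in NBD, and 3.32, 4.15 and 23.2 CPM in control. NR1H2, a liver X receptor that senses oxysterols, rose by 1.01 ± 0.19 in BD (adjusted p = 0.00367) and by 0.82 ± 0.19 in NBD (adjusted p = 0.0128). ACACB, the acetyl-CoA carboxylase at the mitochondrial membrane, rose by 1.24 ± 0.38 in BD (adjusted p = 0.0364). In NBD it was at 0.97 ± 0.38 (adjusted p = 0.0988). SOAT1, which esterifies cholesterol, rose by 0.99 ± 0.21 in BD (adjusted p = 0.00709) and by 1.00 ± 0.21 in NBD (adjusted p = 0.00898). ABCA1, which exports cholesterol, was at -1.35 ± 0.50 in BD (adjusted p = 0.0717) and fell by 1.79 ± 0.51 in NBD (adjusted p = 0.0326). In each of these genes control replicate 3 lay nearer to the sorted libraries than control replicates 1 and 2 did.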

How the data were processed

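Total RNA of 9 HaCaT libraries was sequenced as stranded, rRNA-depleted, paired-end libraries, and 2 micro-scale RNA kits were named, per the labels' protocols. The sources used here do not tie a kit to a library. Raw read counts for each gene ID were deposited by the authors and carry no normalization. FastQC 0.74, Trimmomatic 0.39, STAR 2.7.11b, featureCounts and GRCh38 are named per the submitters' processing notes. Annotation release, strandedness in counting and handling of multi-mapped reads: not given in the sources used here. Overlapping and duplicated genes therefore have uncertain counts. Processed pseudogene copies of members held at most 9 counts in any library.

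The 29 members were matched to gene IDs by symbol, and coordinates, exon lengths and GC content came from GENCODE 29 (GRCh38). Of 78899 gene IDs, 16921 passed filterByExpr and were tested with edgeR 4.0.16 in R 4.3.3: TMM scaling, 1 quasi-likelihood fit with a term per group, 6 residual degrees of freedom, two-sided tests, and Benjamini-Hochberg adjustment over all genes tested. Calls were made at an adjusted p under 0.05. Levels are given for all members. Fold changes are given per comparison for the 6 members of largest difference and those called with all libraries or without control replicate 3, and for at most 3 called genes per direction of the further list. The fit was also tested on simulated counts in which some genes were changed. Across the 3 comparisons it recovered 0% to 4.48% of 1.5-fold changes, 26.9% to 29.9% of 2-fold changes and 84.8% to 92.4% of 4-fold changes. False calls numbered 1 for BD against NBD, 11 for BD against control and 1 for NBD against control. The simulated counts were drawn around 1 mean per gene, with no shared split among the controls and no GC trend. These rates therefore need not hold for the libraries studied. Alternatives used DESeq2 1.42.0 and limma-voom with limma 3.58.1, among others. Figures used matplotlib 3.10.9 (Python 3.11.15).

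The members and the lists were chosen with earlier results of these data known.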

Additional observations from a re-analysis of the deposited data

How the results depend on the processing

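In 20 alternatives, the fold changes given for members with all libraries kept their direction, except for 7 reversals. All kept their side of the threshold or gained a call. No member was called with all libraries, so none could lose a call. The removal of a trend on GC content and length was chosen after seeing the data, and used the 92.3% of genes with a GC value. Another alternative asked for a log2 fold change of at least 1 in the main fit, so it could neither reverse a direction nor add a call. Among members with no fold change given, some with small differences also changed sign, such as SREBF1 for NBD against control (0.07, and -0.62 with control replicate 3 as the only control). The first of the 7 reversals was FASN for BD against NBD, at -0.021 without NBD replicate 3 (up to 0.70 without another library). The others came with control replicate 3 as the only control. For BD against control they were MVK at -0.030, TM7SF2 at -0.68 and FADS1 at -0.15. For NBD against control they were TM7SF2 at -0.68, ACACA at 0.072 and ACLY at 0.0023. The cause was not tested.

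Genes called for BD against NBD (3 with all libraries) numbered 131 without the filter, 57 with DESeq2, 5 with limma-voom, 5 with the 2 groups alone, 9 with control replicate 3 as the only control, and 0 to 16 when 1 library was left out. For BD against control (0) they numbered 1162 without the filter, 167 with DESeq2, 1 with limma-voom and 0 to 4317 when 1 library was left out. For NBD against control (0) they numbered 594, 29 with DESeq2, and 0 to 3228. Members called for BD against control (0) numbered 4 without the filter and 0 to 8 when 1 library was left out, and for NBD against control (0) they numbered 1 and 0 to 2. Of the counts with 1 library left out, the highest in each comparison came without control replicate 3. The median over members for BD against control ran from -0.031 without BD replicate 2 to 0.16. Members of control replicate 3 outside the sorted range (2) numbered up to 4, without NBD replicate 1 or NBD replicate 3, since a range over fewer libraries is narrower.

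Same-numbered libraries deviated together at r = 0.66, 0.08 and 0.37 for BD and NBD and 0.26, 0.05 and 0.29 for BD and control. For NBD and control, r was 0.00, 0.49 and 0.36. The numbers were not taken as pairs in the main fit, and a replicate block was tried as an alternative. Libraries correlated best with their own number in 4, 5 and 4 of 6 cases, a hint from the data and not the design. With the replicate block, 0 genes and 0 members were called in each comparison. At an unadjusted p under 0.05 it gave 8.57% of all genes for BD against NBD, against 5.86% without it. For BD against control the shares were 21.1% and 13.8%, and for NBD against control 14.8% and 9.13%. TM7SF2, with 23 counts in its lowest library, is among the members whose precision depth limits most.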
